A study of Mus musculus with 9 samples.

Results

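Hearts of calcineurin transgenic mice given JIB-04 were compared with hearts of wild type mice given vehicle. The comparison held 6 of the 9 hearts of the study, 2 from transgenic mice with JIB-04 and 4 from wild type mice with vehicle, chosen by the genotype and treatment in their labels. Of 43154 genes listed for each heart, the 13196 that reached 1 FPKM in at least 2 of these 6 hearts were tested. FPKM is a fragment count divided by transcript length and by the size of the library. At the edge of that filter, the gene just inside had 1.0 FPKM in its second highest heart and the gene just outside 0.999.

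The mice were C57BL/6 in all groups. The transgene, an activated calcineurin A, is driven by the α-myosin heavy chain promoter, which is active in cardiomyocytes, so other cells of the heart do not carry its product directly. JIB-04, which inhibits histone demethylases of the Jumonji class, was given at 50 mg/kg from 4 weeks of age, 3 times per week, and vehicle on the same schedule. JIB-04 heart 1 and wild type hearts 1 and 2 came from mice of postnatal day 125, and JIB-04 heart 2 and wild type hearts 3 and 4 from mice of day 158, although the series text describes dosing up to day 158 only. Wild type hearts with JIB-04 were not analysed here, so genotype and drug differ together in this comparison and cannot be told apart. Where a value in the 3 transgenic hearts given vehicle is set beside the others, it comes from mice of day 125 (heart 1) and day 158 (hearts 2 and 3).

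Calcineurin is a phosphatase switched on by calcium and calmodulin. It dephosphorylates NFAT transcription factors, which then enter the nucleus and act with GATA4 and MEF2 proteins on genes of cardiac growth. A heart under such a stimulus returns to genes of fetal muscle, lays down matrix and lowers genes of oxidative metabolism. Jumonji histone demethylases remove methyl groups from histone lysines with iron and 2-oxoglutarate as cofactors.

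Adult heart muscle was the tissue that these libraries showed. All 14 ventricular cardiomyocyte markers of the list passed the filter, and they summed to 16671 and 18462 FPKM in the JIB-04 hearts and to between 20781 and 24673 in wild type. Adipocyte markers summed to at most 3.59 FPKM in any of the 6 hearts, and none of their 8 genes was tested. Read numbers were not given in the sources used here, and the steps between low FPKM values put the depth of the JIB-04 hearts at 1.51 and 1.35 times that of wild type heart 1, with 1.15 to 1.23 for the other wild type hearts. Summed FPKM was 620631 and 661960 in the JIB-04 hearts and 662983 to 769368 in wild type, with 10% to 30.9% of it on the mitochondrial chromosome. Both the sums and that share move with mitochondrial genes listed at 0 in some hearts, which are named with the other genes of that chromosome. Across genes (not independent replicates), Pearson correlations of log2 levels were 0.979 between the JIB-04 hearts, 0.977 to 0.985 between wild type hearts and 0.921 to 0.944 across the groups. On principal components, groups separated along the leading one (63.5% of variance) and days of collection along the next (14.7%).

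Upstream sequence is shown for 4 genes on which the results turn, only at start sites that hold a match, to show the letters that motif searches looked for. Each is taken from the 250 bases before a RefSeq start site (GRCm38.p6), printed 5′ to 3′ on the gene's own strand, and ends before any base of a GENCODE M21 exon and before the outermost RefSeq start of its gene where that lies in the window. This left off the last 26 bases for Dkk2 and the last 2 for Lrrc15. Capitals mark the NFAT core TGGAAA, which reads TTTCCA where it lies on the other strand. They also mark the TATA box, TATAAA. Rcan1, a feedback inhibitor of calcineurin, is shown at the internal start site at chr16:92400079-92400328 on the minus strand, with 2 NFAT cores whose first bases lie 227 and 163 before the start. Nppa, which encodes the atrial natriuretic peptide, is shown at chr4:148000472-148000721 on the plus strand, with a TATA box 9 before the start. Dkk2, a secreted Wnt antagonist that was near 0 in wild type hearts, is shown at chr3:132085042-132085265 on the plus strand, with a TATA box 32 before the start. Lrrc15, which was near 0 in the JIB-04 hearts, is shown at chr16:30283257-30283504 on the minus strand, with an NFAT core 223 before the start.
Rcan1: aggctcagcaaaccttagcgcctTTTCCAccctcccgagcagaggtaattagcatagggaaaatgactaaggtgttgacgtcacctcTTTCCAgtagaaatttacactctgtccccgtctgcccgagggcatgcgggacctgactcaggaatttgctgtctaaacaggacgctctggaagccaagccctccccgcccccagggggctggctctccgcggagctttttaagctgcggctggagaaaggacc
Nppa: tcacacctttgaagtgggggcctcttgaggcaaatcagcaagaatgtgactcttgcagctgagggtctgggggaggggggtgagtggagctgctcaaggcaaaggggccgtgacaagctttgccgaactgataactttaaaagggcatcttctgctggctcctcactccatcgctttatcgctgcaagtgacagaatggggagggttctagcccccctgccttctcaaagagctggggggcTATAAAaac
Dkk2: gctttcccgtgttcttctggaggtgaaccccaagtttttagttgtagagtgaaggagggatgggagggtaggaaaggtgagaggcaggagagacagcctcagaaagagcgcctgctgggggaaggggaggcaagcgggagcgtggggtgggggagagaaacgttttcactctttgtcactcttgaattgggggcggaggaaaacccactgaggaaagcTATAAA
Lrrc15: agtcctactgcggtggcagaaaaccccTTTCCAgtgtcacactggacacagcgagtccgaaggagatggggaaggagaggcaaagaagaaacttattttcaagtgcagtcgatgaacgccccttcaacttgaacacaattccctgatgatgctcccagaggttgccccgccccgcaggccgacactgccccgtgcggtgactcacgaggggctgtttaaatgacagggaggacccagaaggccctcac

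In limma, with the day of collection as a covariate and p-values adjusted over all tested genes, 5079 of 13196 genes (38.5%) differed between the groups at an adjusted p under 0.05. Of these 2676 were higher in the JIB-04 transgenic hearts (20.3% of the genes tested) and 2403 lower (18.2%). At least 2-fold differences made up 550 of the higher genes (4.17% of those tested) and 395 of the lower ones (2.99%), 135 and 51 reached 4-fold, and 40 and 8 reached 8-fold. The median size of a called difference was 0.57 on the log2 scale, and the median over all tested genes was 0.04. Differences are of log2(FPKM + 1), a scale that understates the change of genes at low levels. Both JIB-04 hearts lay above all 4 wild type hearts in 3736 genes (28.3%) and below them in 2923 (22.2%), and 337 called genes overlapped between the groups. In 273 genes the filter was passed through the JIB-04 hearts alone, and 229 of these were called, as their selection favours. Of the genes named by rule, Comp, Ostn, Ppp1r1c, Dkk2, Edn3, Kcnj14, Car9, Arntl, Retnlg and Krt18 are among them, each below 1 FPKM in every wild type heart. They had to differ to be tested, so their p-values are no support for the difference. In the same way Pla2g5, Pde1c, Lrrc4b, Retnla, Lrrc15, Clcn1, Kcnv2, Hey2 and Tnni2 were below 1 FPKM in both JIB-04 hearts and passed through the wild type hearts. Without JIB-04 heart 1 there were 1254 higher and 1564 lower genes, and without JIB-04 heart 2 there were 1219 and 1064, while the 2-fold counts were 538 and 479, and 560 and 350. With a pseudocount of 0.1 the 2-fold counts were 761 and 621. With summed FPKM made equal between hearts outside the mitochondrial chromosome, the median of all genes moved by 0.20, and 5261 genes were higher and 1517 lower (77.6% of calls higher, against 52.7%), of which 792 and 277 were at least 2-fold. The labels number the mice separately. A p-value weighs the group difference against the spread between these hearts, with only 2 JIB-04 hearts.

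**Figure D1:**
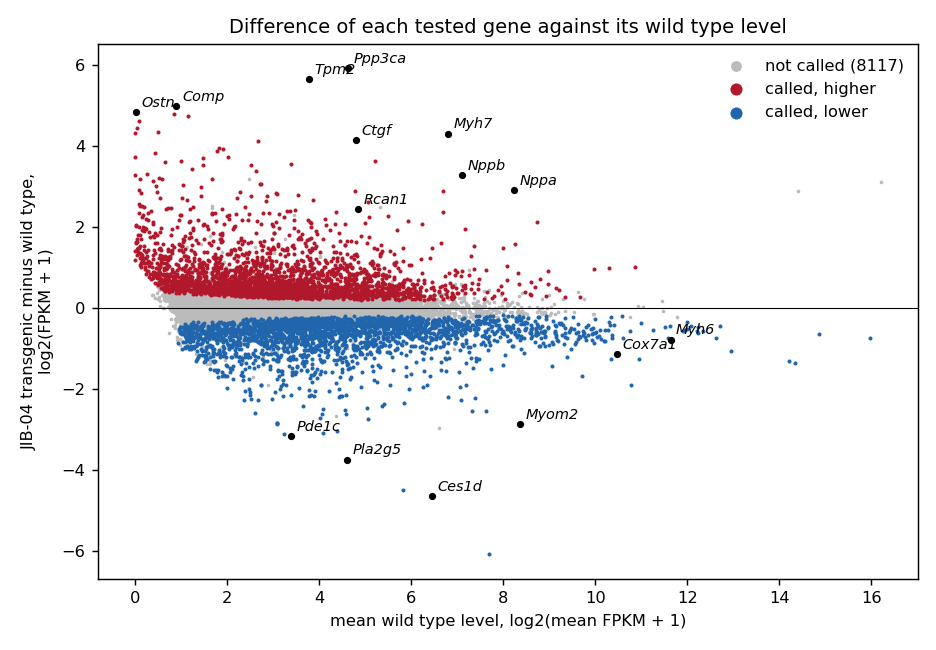
Each point is 1 tested gene, with the log2 of its mean wild type FPKM + 1 on the horizontal axis and the limma difference of log2(FPKM + 1), JIB-04 transgenic minus wild type, on the vertical axis. The 2676 higher calls are red, the 2403 lower calls blue, genes not called grey, and named genes black, with Ppp3ca highest at 5.91 and Ces1d at -4.65.

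The transgene was visible in both JIB-04 hearts. Ppp3ca, which encodes the catalytic α subunit of calcineurin (chromosome 3, positions 136670124 to 136937727), was at 1536 and 1434 FPKM in JIB-04 hearts 1 and 2, and at 22.9, 23.4, 24.1 and 24.8 FPKM in wild type hearts 1 to 4. Both transgenic hearts were far above a wild type group that varied little. The difference was 5.91 ± 0.07 (SE) on the log2 scale (limma adjusted p = 7.2e-07), and whether Ppp3ca collects the whole transcript of the transgene cannot be read from values per gene. Transgenic hearts given vehicle were at 1762, 1706 and 199 FPKM, the last of them below both JIB-04 hearts. Rcan1, the feedback inhibitor (chromosome 16, positions 92391953 to 92466146), was at 140 and 169 FPKM with JIB-04 and at 25.6, 28.9, 26.7 and 29.4 FPKM in wild type hearts 1 to 4. The groups did not overlap, and the difference was 2.44 ± 0.09 (SE) with limma adjusted p = 3.3e-05.

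Of 21 tested genes of calcineurin and NFAT signalling 7 rose and 3 fell, with a median of 0.11 beside 0.04 over all genes. The rises include Rcan1 and Ppp3ca, the gene of the transgene itself. Akap6, the anchoring protein that holds calcineurin at the nuclear envelope, rose by 0.83 ± 0.08 (SE; adjusted p = 0.00079) from 17.7 to 25.0 FPKM in wild type to 33.9 and 41.7. Gata4, the NFAT partner, rose by 0.71 ± 0.07 (SE; adjusted p = 0.00081), at 81.5 and 78.9 FPKM against 45.4 to 51.7. Rcan2 (0.53), the kinase Dyrk1a (0.53) and Nfat5 (0.41) were the other called rises. The 3 falls were Nfatc2 (-0.63), Mef2a (-0.59) and Mef2c (-0.46), an NFAT factor and 2 MEF2 factors. Calls were lost without JIB-04 heart 1 for Nfat5 (adjusted p = 0.15) and Mef2c (0.059), and without heart 2 for Rcan2 (0.051), Dyrk1a (0.07) and Mef2c (0.063). With equal totals 13 genes of this list were higher and 3 lower. The other calcineurin subunit genes Ppp3cb (-0.09, adjusted p = 0.33), Ppp3cc (0.11, adjusted p = 0.36) and Ppp3r1 (-0.07) were not called. Counts in this and the following lists stand beside 20.3% higher and 18.2% lower over all genes tested. Members of these lists named beside the rule for named genes were picked after their values were seen, to complete a count or show its other side.

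The largest rise after Ppp3ca was that of a fetal muscle gene. Tpm2, which encodes β-tropomyosin (a thin filament protein; chromosome 4, positions 43514711 to 43523765), was at 783 and 587 FPKM with JIB-04 and at 11.3, 11.8, 14 and 13.7 in wild type hearts 1 to 4. It rose by 5.64 ± 0.14 (SE; limma adjusted p = 1.4e-05), with no overlap. Myh7, the slow β-myosin heavy chain (chromosome 14, positions 54970688 to 54994634), was at 2162 and 2168 FPKM against 105, 144, 95.6 and 98.1. The JIB-04 hearts were nearly equal and every wild type heart far lower, with a difference of 4.30 ± 0.14 (SE; adjusted p = 2.3e-05). Its exons share positions with Mhrt, Gm29015 and Gm31251, and the library kit did not keep strand, so reads of these genes cannot be told apart.

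Of 19 tested genes of the fetal and hypertrophy programme 14 rose and 0 fell, with a median of 1.96 (0.04 over all genes). Members summed to 10911 and 10997 FPKM in the JIB-04 hearts and to 2274 to 2728 in wild type. Nppb, which encodes B-type natriuretic peptide of stretched ventricle (chromosome 4, positions 147985788 to 147987205), was at 1268 and 1285 FPKM with JIB-04 and at 77.7, 166, 147 and 152 in wild type. Wild type heart 1 had the lowest level, and the groups were far apart (3.28 ± 0.28 (SE), adjusted p = 0.00043). Nppa, the atrial peptide gene (positions 148000722 to 148002079 on the same chromosome), was at 2186 and 2326 FPKM against 287, 306, 279 and 324, a difference of 2.91 ± 0.08 (SE; adjusted p = 1.4e-05). Acta2, the smooth muscle α-actin that fetal cardiomyocytes also use, was at 460 and 420 FPKM against 31.8, 22.2, 37.9 and 52.7 (3.63 ± 0.24 (SE), adjusted p = 0.00019). All 3 genes were higher in each JIB-04 heart than in each wild type heart. The stretch-responsive Ankrd1 (2.12), Ankrd23 (2.36) and Fhl1 (2.15) rose as well, while Csrp3 (-0.16), Myh7b (-0.01) and Tagln (0.24) were not called.

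**Figure D2:**
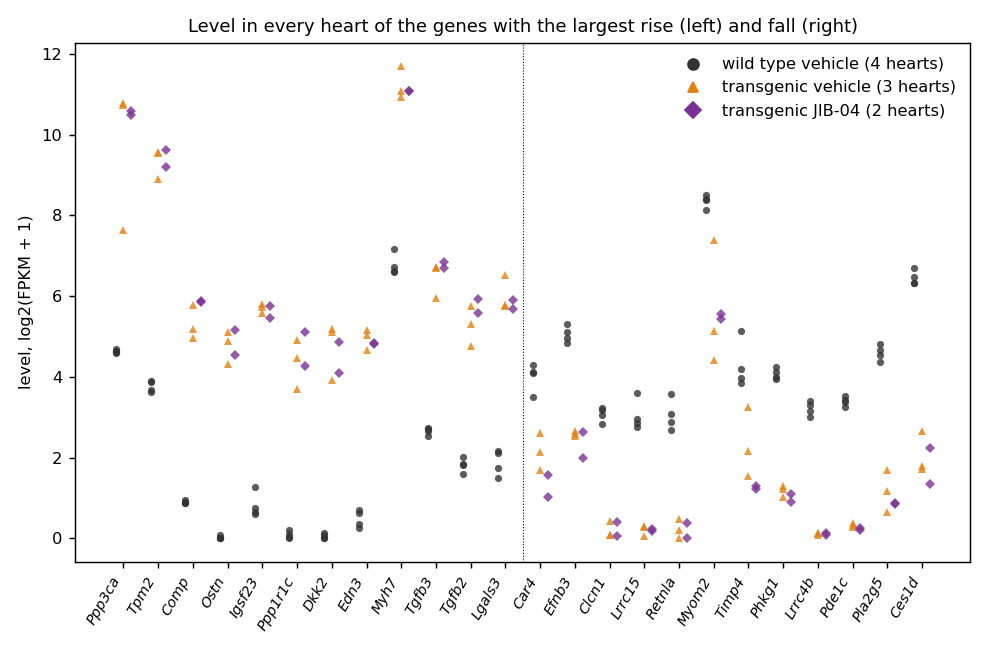
Levels as log2(FPKM + 1) in every heart for the 12 protein-coding genes with the largest called rise (left of the dotted line) and the 12 with the largest called fall (right), with circles for wild type vehicle, triangles for transgenic vehicle and diamonds for transgenic JIB-04 hearts. The rule took only genes with both diamonds on one side of all 4 circles, for instance Tpm2 at 783 and 587 FPKM against 11.3 to 14.

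Among adult sarcomere genes, 11 of 29 rose and 7 fell, with a median of 0.11. The summed level overlapped between the groups, at 26473 and 29260 FPKM with JIB-04 and 28865 to 34496 in wild type. Synpo2l, a Z-disc protein, was at 187 and 243 FPKM against 41.2, 45.8, 45.1 and 43.7 (2.26 ± 0.10 (SE), adjusted p = 4.7e-05). Pdlim5, a Z-disc adaptor, rose by 1.04 (545 and 564 FPKM against 264 to 277), and Flnc, the muscle filamin, by 1.09. Myom2, a protein of the M-band (chromosome 8, positions 15057653 to 15133541), was at 45.7 and 42.1 FPKM against 331, 339, 363 and 281. Both JIB-04 hearts were below all wild type hearts (-2.87 ± 0.11 (SE), adjusted p = 3.1e-05). Myh6, the adult α-myosin heavy chain, fell by 0.78 (adjusted p = 0.00055), at 1755 and 1964 FPKM against 2936 to 3365, and the cardiac troponin I gene Tnni3 by 0.74. Under a fit of all 9 hearts the call of Myh6 was lost. With equal totals 18 genes were higher and 5 lower, and without the filter 4 were lower.

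Since FPKM is per length, pairs of isoform genes could be set against each other as shares of their summed FPKM. These pairs were chosen after their values were seen and carry no test. Myh7 made up 55.2% and 52.5% of the sum of Myh7 and Myh6 in the JIB-04 hearts, against 3.11%, 4.66%, 2.91% and 2.83% in wild type hearts 1 to 4. Tpm2 made up 21.9% and 18.7% of the sum with Tpm1 against 0.349% to 0.539%. The slow troponin I gene Tnni1, called higher (1.59), made up 0.158% and 0.164% of its sum with Tnni3, against 0.000974%, 0.0083%, 0.0104% and 0.0273% in wild type. Among glycolytic isoforms, Hk1 held 61.5% and 64.0% of its sum with the muscle hexokinase gene Hk2, against 33.8% to 37.9% in wild type. Eno1, itself called at 0.52 (adjusted p = 0.073 without JIB-04 heart 2), held 36.8% and 42.1% of its sum with the muscle enolase gene Eno3 against 10.9% to 13.9%. The shares of these 5 pairs did not overlap between the groups.

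Genes of calcium cycling went both ways, with 6 of 24 higher (25.0%) and 7 lower (29.2%), beside 20.3% and 18.2% over all genes. The median was -0.06. Casq1, the calsequestrin of skeletal muscle, was at 41.6 and 27.5 FPKM against 4.11, 4.89, 3.21 and 3.30 (2.85 ± 0.10 (SE), adjusted p = 2.4e-05). Cacna1g, a T-type calcium channel of the fetal heart and conduction system, rose by 1.33 (28.6 and 24.0 FPKM against 7.88 to 13.0). Among the falls, Hrc, the histidine-rich calcium store protein, was at 264 and 193 FPKM against 451, 448, 396 and 444 (-0.94 ± 0.10 (SE), adjusted p = 0.00082). S100a1, an activator of the calcium pump and release channel, fell by 0.71, and the phospholamban gene Pln by 0.57. Atp2a2, the calcium pump of the reticulum, fell by 0.38 (adjusted p = 0.0030), a call lost with equal totals, without the filter and without the day term. Ryr2, the release channel, was not called (-0.20, 95% interval -0.43 to 0.02). Without either JIB-04 heart 3 genes of the list rose, and with equal totals 10 did.

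Channels for potassium and sodium and their partners were mostly lower, with 18 of 30 falling and 2 rising and a median of -0.48. Kcnv2, a modifier of potassium channels, was at 0.071 and 0.0217 FPKM against 3.21 to 5.16 (-2.28), and Kcnj3, a channel opened by acetylcholine, at 6.26 and 3.01 against 20.4 to 24.1 (-2.14). The repolarising channel genes Kcne1 (-1.78), Kcnd2 (-1.76), Kcna5 (-1.42), Kcnq1 (-0.94) and Kcnh2 (-0.82) fell, and so did the connexin gene Gja1 (-0.50). The 2 rises were Kcnj14, an inward rectifier, from 0.282 to 0.339 FPKM in wild type to 4.58 and 4.64 (2.11 ± 0.11 (SE), adjusted p = 8.4e-05), and the sodium pump subunit gene Atp1b1 (0.81). With equal totals 7 were higher and 15 lower, and after quantile normalization 5 and 19. The call of Kcnh2 was lost without JIB-04 heart 2 (adjusted p = 0.06), and that of Gja1 without JIB-04 heart 1 (0.06) or 2 (0.11).

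Of 28 genes of natriuretic, adrenergic, endothelin and angiotensin signalling 12 rose and 9 fell, with a median of 0.23. Among the ligands, Ostn, which encodes osteocrin (chromosome 16, positions 27307489 to 27351212), was at 34.5 and 22.2 FPKM with JIB-04 and at 0, 0.0483, 0 and 0.00139 in wild type. It was therefore near 0 in every wild type heart (4.82 ± 0.15 (SE), adjusted p = 2.2e-05), and it shares exon positions with Gm32312. Edn3, an endothelin, was at 27.4 and 27.3 FPKM against 0.538, 0.630, 0.197 and 0.277 (4.34 ± 0.12 (SE), adjusted p = 1.4e-05), and Edn1 rose by 1.54. Among the receptors, Npr3, which clears natriuretic peptides and binds osteocrin, was at 46.6 and 52.2 FPKM against 3.04, 2.16, 2.45 and 2.07 (3.88 ± 0.13 (SE), adjusted p = 2.5e-05). The signalling receptor gene Npr1 fell by 0.92, and so did Corin (-0.68), whose protease processes pro-peptides, while the protease gene Furin rose by 1.04. Ednra (1.48), Adra1a (1.07), the receptor kinase gene Grk5 (2.41) and Ace (1.70) rose. Pde1c, a phosphodiesterase activated by calmodulin (chromosome 6, positions 56069821 to 56369634), was at 0.146 and 0.194 FPKM against 10.5, 9.40, 8.51 and 9.71, a fall to near 0 in both JIB-04 hearts (-3.17 ± 0.10 (SE), adjusted p = 2.3e-05). The β-adrenergic receptor gene Adrb1 was not called (0.04).

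Matrix genes gave the widest rise of any list, with 43 of 48 tested members higher and 1 lower, a median of 1.37 and a sum of 2900 and 3010 FPKM against 977 to 1070. Comp, cartilage oligomeric matrix protein (chromosome 8, positions 70373548 to 70382065), was at 56.5 and 58.1 FPKM against 0.856, 0.831, 0.833 and 0.936. The JIB-04 hearts agreed closely, as did the wild type hearts (4.97 ± 0.08 (SE), adjusted p = 3.1e-06). Ctgf, connective tissue growth factor, was at 502 and 452 FPKM against 27.4, 27.6, 33.8 and 18 (4.14 ± 0.22 (SE), adjusted p = 8.4e-05). Of the transforming growth factors, Tgfb3 was at 115 and 102 FPKM against 5.33, 4.81, 5.63 and 5.49 (4.11), and Tgfb2 at 47.1 and 60.1 against 2.0, 2.55, 2.54 and 3.07 (3.95). The third ligand, Tgfb1, was not called (0.02). Structural collagens rose less, with Col1a1 at 1.59 and Col3a1 at 1.27, beside periostin, Postn, at 2.39. Col1a1 and Col3a1 were not called in the fit of all 9 hearts, where 1 vehicle heart stood at 9.67 and 14.1 FPKM. The 1 fall was Thbs2, a thrombospondin (-0.71, adjusted p = 0.0049), which lost its call without JIB-04 heart 2 (adjusted p = 0.076), with the replicate block and in the fit of all 9 hearts. Timp4, an inhibitor of matrix proteases outside that list (chromosome 6, positions 115245616 to 115251849), was at 1.33 and 1.46 FPKM against 34.2, 14.6, 17.3 and 13.4. Wild type heart 1 was the highest, and the fall was 3.03 on the log2 scale (-3.03 ± 0.33 (SE), adjusted p = 0.00097). Timp4 shares exon positions with Syn2 and was not called in the hearts of day 125 alone.

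Secreted growth factors and Wnt antagonists rose in 20 of 35 tested members and fell in 4, with a median of 0.67. Dkk2, the Wnt antagonist shown above, was at 28.3 and 16.2 FPKM against 0, 0, 0.0483 and 0.0928 (4.44 ± 0.20 (SE), adjusted p = 5.2e-05). Sfrp2 (3.02), Dkk3 (2.72), Frzb (2.08) and Sfrp1 (2.03), which bind Wnt ligands or their receptors, rose as well. Fst (2.49), Fstl3 (1.83) and Inhba (1.95), 2 antagonists and 1 subunit of the activins, rose together. The falls were Igf2 (-1.03), Fgf13 (-0.90), Vegfb (-0.77) and Pdgfa (-0.32). Pdgfa was not called without any single heart but wild type heart 1, with adjusted p between 0.052 and 0.32. With a filter of 5 FPKM 11 genes of the list rose.

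**Figure D3:**
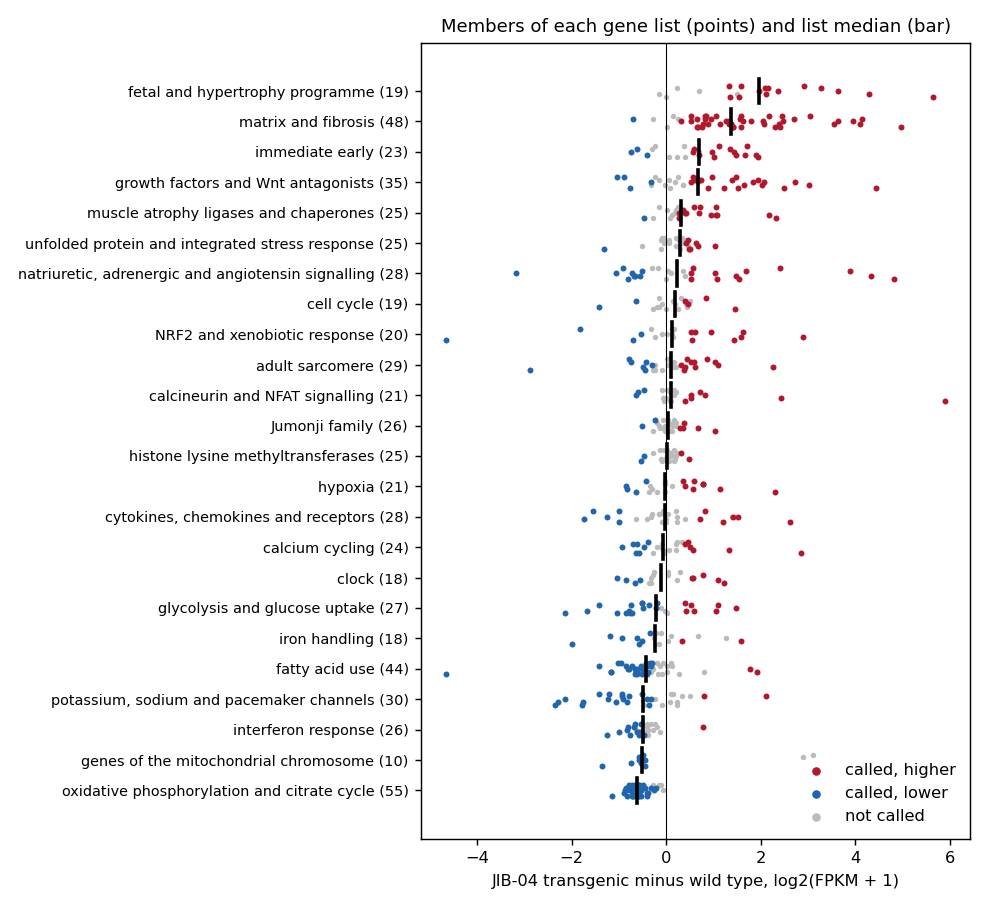
Each row is a gene list with the number of tested members in brackets, each point a member at its limma difference (JIB-04 transgenic minus wild type, log2(FPKM + 1)), red for called higher, blue for called lower and grey for not called, and the black bar is the list median. Among the lists plotted, which leave out cell type markers, the medians run from -0.62 for oxidative phosphorylation and citrate cycle genes to 1.96 for the fetal and hypertrophy programme.

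The genes of respiratory complexes and the citrate cycle fell almost throughout, with 51 of 55 lower and 0 higher, a median of -0.62, and a sum of 21626 and 26668 FPKM against 33783 to 40569. With equal totals 46 fell and the median was -0.40. Cox7a1, a muscle subunit of complex IV, was at 738 and 559 FPKM against 1561, 1572, 1241 and 1329 (-1.14 ± 0.06 (SE), adjusted p = 0.00010). Cs, citrate synthase, was at 254 and 253 FPKM against 482, 436, 468 and 468 (-0.87 ± 0.07 (SE), adjusted p = 0.00028). Both genes were lower in each JIB-04 heart than in each wild type heart. Ndufa5 of complex I and Cox5b fell by 0.84 and 0.89, with heart 2 the lower of the JIB-04 hearts in each (341 and 302 FPKM, against 526 and 535 in heart 1). Members that did not pass were Ndufb3 (-0.27), Sdhc (-0.07), Idh2 (-0.15) and Pdha1 (-0.11).

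On the mitochondrial chromosome 8 of 10 tested genes were lower and 0 higher, with a median of -0.50. mt-Nd1 was at 3813 and 3771 FPKM against 6612, 6404, 6008 and 6303 (-0.74 ± 0.06 (SE), adjusted p = 0.00039), and mt-Nd3 at 11417 and 5641 against 16984 to 27764 (-1.35). These calls depended on the processing, since 3 remained after quantile normalization and 0 without the filter. Both mt-Co1 and mt-Co2 are listed at 0 in wild type heart 2, while mt-Co2 was at 111756, 94694 and 98033 FPKM in the other wild type hearts, and neither gene was called. The genes mt-Co3, mt-Atp6 and mt-Atp8 were at 38913, 29964 and 47643 FPKM in JIB-04 heart 2, are listed at 0 in the other 5 hearts, and were not tested. Every cell with mitochondria uses these genes, so a 0 may be a failed estimate rather than a level. Such values enter the fits of mt-Co1 and mt-Co2, the mitochondrial share and summed FPKM.

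Genes of fatty acid use fell in 27 of 44 tested members and rose in 2, with a median of -0.42. Ces1d, a carboxylesterase that hydrolyses triglycerides (chromosome 8, positions 93166068 to 93197838), was at 3.75 and 1.55 FPKM against 102, 79.3, 87.6 and 79.3. It had the deepest fall of any protein-coding gene (-4.65 ± 0.19 (SE), adjusted p = 4.3e-05), and reads of close copies in its family may be divided among them. Acaa2, a thiolase of β-oxidation, was at 258 and 151 FPKM against 591, 520, 519 and 505 (-1.43). Lpl, which releases fatty acids from lipoproteins, fell by 0.81 and the uptake gene Cd36 by 0.40, the latter not called without JIB-04 heart 2 (adjusted p = 0.082) or with equal totals. The 2 rises were Pdk4, a kinase that shuts pyruvate dehydrogenase, at 167 and 196 FPKM against 41.8, 34.3, 85 and 40.7 (1.92 ± 0.28 (SE), adjusted p = 0.0029), and Angptl4, an inhibitor of Lpl, at 6.71 and 5.88 against 0.879 to 1.27 (1.78). The carnitine transferase gene Cpt1b (-0.08, 95% interval -0.35 to 0.18) and the coactivator gene Ppargc1a (-0.06, interval -0.34 to 0.23) were not called. With equal totals 18 fell and 4 rose, and without JIB-04 heart 2 there were 17 falls.

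Glycolysis and glucose uptake gave 7 rises and 15 falls among 27 genes, with a median of -0.22. Gpi1, glucose-6-phosphate isomerase, was at 738 and 690 FPKM against 274, 255, 247 and 250 (1.47 ± 0.06 (SE), adjusted p = 4.1e-05). Eno3 was at 283 and 239 FPKM against 950, 849, 743 and 805 (-1.68 ± 0.07 (SE), adjusted p = 4.7e-05), and the regulatory enzyme genes Pfkfb1 (-2.14) and Pfkfb2 (-1.41) fell with it. Slc2a4, the insulin-responsive glucose transporter, fell by 1.03, while the lactate exporter gene Slc16a3 rose by 1.09 and Hk1 by 1.06. The list thus held calls of both directions for uptake, phosphorylation and enolase steps. The rise in uptake was that of Slc2a1, which stood at 0.43 without JIB-04 heart 1 and 0.39 without heart 2. Its call was lost without either JIB-04 heart, and also without wild type heart 1 (limma adjusted p = 0.058).

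Other deep falls lay outside these lists. Pla2g5, a secreted phospholipase, was at 0.83 and 0.786 FPKM against 24.4, 22.1, 19.7 and 26.9 (-3.74 ± 0.13 (SE), adjusted p = 2.5e-05). Lrrc4b, a synaptic adhesion protein, was at 0.0526 and 0.0905 FPKM against 7.04 to 9.59 (-3.12), and Phkg1, the muscle phosphorylase kinase subunit, at 1.12 and 0.876 against 14.5 to 17.9 (-3.08). Retnla (-2.86), Lrrc15 (-2.84), the chloride channel gene Clcn1 (-2.83), the ephrin gene Efnb3 (-2.74) and the carbonic anhydrase gene Car4 (-2.71) completed the 12 deepest falls of protein-coding genes. The rule required groups that do not overlap. Phkg1 shares exon positions with Sumf2 and Clcn1 with Fam131b. Among transcripts of other kinds Gm15543, typed as antisense, fell by 6.08 from a mean of 207 to 2.07 FPKM.

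Among the largest rises not yet described, Igsf23 was at 53.0 and 43.0 FPKM against 0.528, 0.693, 1.40 and 0.557 (4.79 ± 0.21 (SE), adjusted p = 4.7e-05). Ppp1r1c, an inhibitor of protein phosphatase 1, was at 33.5 and 18.3 FPKM against 0.0815, 0, 0.148 and 0.0168 (4.61). Lgals3, galectin-3, was at 50.7 and 59.0 FPKM against 3.44, 3.33, 2.34 and 1.82 (3.92 ± 0.17 (SE), adjusted p = 4.8e-05). It is a marker of activated macrophages, and of the other 16 tested macrophage markers 0 rose and 2 fell (Cd163, -0.57, and Folr2, -0.33). The call of Cd163 was lost without either JIB-04 heart (adjusted p = 0.25 and 0.13) and without wild type heart 3 (0.081) or 4 (0.063). Without Lgals3, macrophage markers summed to 245 and 282 FPKM in the JIB-04 hearts and to 217 to 293 in wild type, so the groups overlapped. Folr2 was not called without either JIB-04 heart (0.11 and 0.15). With equal totals 6 macrophage markers rose and 0 fell. Their part in the rise of Lgals3 was not tested.

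The Jumonji family holds the demethylases that JIB-04 inhibits, beside other members. Of its 26 tested genes 5 were higher (19.2%, beside 20.3% over all genes) and 2 lower (7.69%, beside 18.2%). The median was 0.04, the same as over all genes. Hr was at 13.0 and 13.9 FPKM against 3.56, 6.16, 7.02 and 8.26 (1.04 ± 0.21 (SE), adjusted p = 0.0094; 0.12 without JIB-04 heart 1). Tyw5, which shares exon positions with Maip1, rose by 0.68 (adjusted p = 0.0090; 0.11 without JIB-04 heart 1). Jarid2, a partner of Polycomb complexes, fell by 0.50 (adjusted p = 0.0059; 0.085 without JIB-04 heart 2). Kdm5b (0.38), Kdm3a (0.35), Kdm4c (0.29) and Jmjd8 (-0.24) had adjusted p-values between 0.024 and 0.044. For Kdm5b this was 0.24 without JIB-04 heart 2, and between 0.055 and 0.061 without JIB-04 heart 1 or wild type heart 3 or 4. Kdm3a, Kdm4c and Jmjd8 each lost their call without either JIB-04 heart and without at least 3 of the 4 wild type hearts, with adjusted p between 0.052 and 0.28. Without JIB-04 heart 1 the list held 0 higher and 1 lower call, and without heart 2 it held 2 and 0. Without wild type hearts 1, 3 or 4 it held 3, 3 or 2 higher calls. With equal totals 11 were higher and 1 lower, and without the filter 1 and 2, so the number of calls followed the processing. Among 25 histone lysine methyltransferases 2 rose and 2 fell (8.0% each), beside 20.3% and 18.2% over all genes. Smyd2 (-0.53) and the muscle enzyme Smyd1 (-0.46) were lower, and Setd7 (0.49) and Kmt2c (0.31) higher. Without JIB-04 heart 2 the adjusted p was 0.065 for Smyd1 and 0.087 for Setd7, and for Kmt2c it lay between 0.054 and 0.18 without any heart other than wild type heart 3. With equal totals 9 rose.

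Immediate early genes, which respond to growth signals within minutes, rose in 13 of 23 tested members and fell in 3, with a median of 0.69. Btg2, an antiproliferative factor, was at 69.3 and 44.4 FPKM against 15.3, 16.5, 13.7 and 11.6 (1.90 ± 0.11 (SE), adjusted p = 0.00011). Atf3 (1.71), Myc (1.67) and Junb (1.47) rose as well, and Nr4a1 (-0.75), Klf2 (-0.62) and Ier3 (-0.40) fell. Egr1 was at 31.2 and 7.23 FPKM against 1.92, 3.30, 3.92 and 4.22, so that JIB-04 heart 1 carried most of its difference of 1.94 ± 0.52 (SE; adjusted p = 0.027). Without that heart it was 0.70 (adjusted p = 0.11), and the call was also lost without wild type heart 1 (0.054) or 2 (0.06). Myc was not called without JIB-04 heart 2 (0.057), Nr4a1 and Klf2 not without either JIB-04 heart (0.17 and 0.16, 0.055 and 0.14), and Nr4a1 not without wild type heart 4 (0.058). Ier3 lost its call without either JIB-04 heart (0.1 and 0.33) or without wild type heart 1 (0.081) or 2 (0.075).

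Chaperones and muscle ubiquitin ligases rose in 14 of 25 members and fell in 1 (Trim55, -0.46), with a median of 0.32. The heat shock genes Hspa1a (2.33) and Hspa1b (2.17) led, at 19.6 and 11.3 and at 26.9 and 17.5 FPKM against 0.985 to 4.13 and 2.27 to 8.42, and as near-identical copies they may exchange reads. Bag3, which clears damaged filamin, rose by 0.94, and the atrophy ligase gene Trim63 was not called (0.02). Without JIB-04 heart 1 this list held 7 rises, without heart 2 it held 8, and without the filter 9. Trim55 lost its call without either JIB-04 heart (0.15 and 0.055). Of 25 genes of the unfolded protein and integrated stress responses 7 rose and 1 fell. The fall was Herpud1 of the reticulum, at 70.7 and 60.8 FPKM against 225, 174, 165 and 114 (-1.32). Mthfd2, a mitochondrial folate enzyme, rose by 1.03 (adjusted p = 0.0073; 0.10 without JIB-04 heart 2), and without heart 1 or 2 the list held 4 or 3 rises. With equal totals it held 14.

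Interferon response genes fell in 12 of 26 tested members and rose in 1 (Ifit2, 0.78), with a median of -0.49. This count depended on having both JIB-04 hearts, since without heart 1 there were 3 falls and without heart 2 there was 1. There were 19 without wild type heart 1, 7 without wild type heart 4, 7 with equal totals and 4 without the filter. The rise of Ifit2 was not called without either JIB-04 heart (0.062 and 0.07). Oas2 was at 1.99 and 1.56 FPKM against 4.77, 8.85, 5.06 and 4.53 (-1.26 ± 0.21 (SE), adjusted p = 0.0049; 0.061 and 0.051 without JIB-04 heart 1 or 2). Rsad2 fell by 0.99 (adjusted p = 0.011; 0.12 without JIB-04 heart 2). Both JIB-04 hearts lay below all wild type hearts in 17 of the 26 genes, beside 22.2% of all genes tested.

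Hypoxia genes went both ways, with 8 of 21 higher and 4 lower. Car9, a carbonic anhydrase, was at 5.61 and 3.62 FPKM against 0.0695, 0.0785, 0.206 and 0.143 (2.30 ± 0.17 (SE), adjusted p = 0.00029), and P4ha1, a collagen prolyl hydroxylase, rose by 1.15. Car9 shares exon positions with Gm12454. Epas1 (-0.84), Vegfa (-0.63), Pdgfb (-0.83) and Egln1 (-0.43) fell. Without JIB-04 heart 1 there were 3 rises, and without heart 2 there were 4 rises and 1 fall. The falls of Vegfa (0.066), Pdgfb (0.054) and Egln1 (0.064) were those lost without heart 2, and without the filter 3 genes rose. Of 20 NRF2 and xenobiotic response genes 8 rose and 4 fell. Gpx3, a secreted glutathione peroxidase, was at 754 and 761 FPKM against 86.1, 116, 115 and 92.3 (2.89 ± 0.14 (SE), adjusted p = 6.8e-05). The NRF2 gene itself, Nfe2l2, was not called (0.12). Without JIB-04 heart 1, and without the filter, 5 genes of that list rose.

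Iron handling held 2 rises and 7 falls among 18 genes. The iron exporter gene Slc40a1 was at 1.29 and 1.13 FPKM against 7.53, 6.74, 9.69 and 7.66 (-2.0 ± 0.13 (SE), adjusted p = 0.00018). Ceruloplasmin, Cp, a ferroxidase, rose by 1.59 (94.0 and 103 FPKM against 28.2 to 35) and shares exon positions with Hps3. Clock genes gave 5 rises (27.8%) and 4 falls (22.2%) of 18, beside 20.3% and 18.2% over all genes. Arntl was higher by 1.23 and Nr1d1, which shares exon positions with Thra, by 1.10. Without JIB-04 heart 2 there were 3 rises, and with median-of-ratios scaling 7 falls. Among cytokines and receptors 6 of 28 rose (21.4%) and 5 fell (17.9%), near the 20.3% and 18.2% over all genes. Tnfrsf12a, the TWEAK receptor, was at 202 and 202 FPKM against 27.4, 29.3, 38.4 and 34.4 (2.62 ± 0.10 (SE), adjusted p = 3.5e-05), and Il15 fell by 1.73. Without JIB-04 heart 1 there were 3 falls. Cell cycle genes were called in 4 of 19 cases as higher (21.1%) and in 2 as lower (10.5%), beside 20.3% and 18.2% over all genes. Cdkn1a, a kinase inhibitor, was at 18.1 and 29.4 FPKM against 12.2, 9.11, 6.02 and 5.45 (1.45; adjusted p = 0.013, and 0.063 without JIB-04 heart 2), and Cdkn1c, another, fell by 1.43. Cell cycle rises numbered 2 without JIB-04 heart 1, 1 without heart 2 and 9 with equal totals.

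Markers of other heart cells moved with these changes. In bulk tissue, fewer cells of a type and less RNA per cell cannot be told apart. Of 17 fibroblast markers 12 rose and 2 fell (Clec3b, -1.68, and Fap, -0.72), with a median of 0.85 and sums of 2257 and 2594 FPKM against 1140 to 1314. Of these, Col1a1, Col1a2, Col3a1, Dcn, Lum and Mfap5 are also in the matrix list. The lineage genes Tcf21 (0.95) and Pdgfra (0.31, not called) were not among the largest, and Fap lost its call without either JIB-04 heart (0.19 and 0.094) or wild type heart 4 (0.057). The part of fibroblast numbers in the rise of matrix genes was not tested.

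Endothelial markers fell in 14 of 20 members and rose in 3, with a median of -0.70 and sums of 691 and 782 FPKM against 1043 to 1292. Aqp1, a water channel, was at 40.0 and 29.5 FPKM against 212, 184, 136 and 131 (-2.21 ± 0.08 (SE), adjusted p = 3.1e-05). The junction gene Cdh5 fell by 1.0, the receptor gene Tie1 by 1.03 and Pecam1 by 0.59, while Npr3 (3.88), Plvap (0.99) and Vwf (0.95) rose. The number of falls was 14 under each of the 3 other scalings and 11 without JIB-04 heart 2, and Vwf was not called without heart 1 (adjusted p = 0.057). Smooth muscle and pericyte markers gave 4 rises and 8 falls of 15. Their sum was higher, at 1473 and 1379 FPKM with JIB-04 against 933 to 973. Acta2, among the rises (3.63), made up most of that difference, at 460 and 420 FPKM against 22.2 to 52.7. The falls included the pericyte genes Vtn (-1.65), Kcnj8 (-1.2), Rgs5 (-0.96), Abcc9 (-0.93) and Notch3 (-0.79), while the contractile gene Myh11 was not called (0.01).

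Ventricular cardiomyocyte markers rose in 1 (Tbx20, 1.15) and fell in 6 of 14 members, and Tnnt2, Ttn, Ryr2 and Nkx2-5 were not called. With equal totals 4 rose and 6 fell. Atrial markers rose in 2 of 11 (Nppa and Dkk3) and fell in 4, with Myl4 (1.5) and Myl7 (0.70) not called, and the atrial falls numbered 2 without either JIB-04 heart or with equal totals. The atrial rises numbered 4 without wild type heart 4, in which Myl7 stood at 13.5 FPKM. Some markers of blood were called higher, though erythroid sums overlapped, at 10970 and 7185 FPKM with JIB-04 against 3132 to 7473 in wild type. Of 5 tested erythroid genes 4 rose, with Hba-a2 at 4528 and 2873 FPKM against 1797, 2871, 1166 and 1662, so that JIB-04 heart 2 and wild type heart 2 were level. Without either JIB-04 heart 0 of these were called (for Hba-a2 adjusted p = 0.087 and 0.11, for Hba-a1 0.093 and 0.17), and these near-identical globin genes may exchange reads. S100a9 and Retnlg rose among 5 neutrophil and mast cell markers, with S100a9 at 9.77 FPKM in JIB-04 heart 1 and 2.47 in heart 2, and without heart 1 their adjusted p was 0.14 and 0.17. Retnlg also lost its call without JIB-04 heart 2 (0.082) or wild type heart 3 (0.05). Lymphocyte (0 of 2) and Schwann cell and neuronal markers (0 of 3) held no call in limma. Epicardial markers rose in 3 of 4 (Krt18, 1.85, Tbx18, 0.61, with adjusted p = 0.051 without JIB-04 heart 2, and Aldh1a2, 1.22, whose adjusted p was 0.10 without JIB-04 heart 2). Of the conduction system markers 2 of 6 rose and 2 fell, among them Tbx3 (-0.86; adjusted p = 0.051 without JIB-04 heart 1). Of 13 skeletal muscle markers 2 were tested and both fell, Ckm, muscle creatine kinase, by 1.26 and Tnni2 by 1.2.

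**Figure D4:**
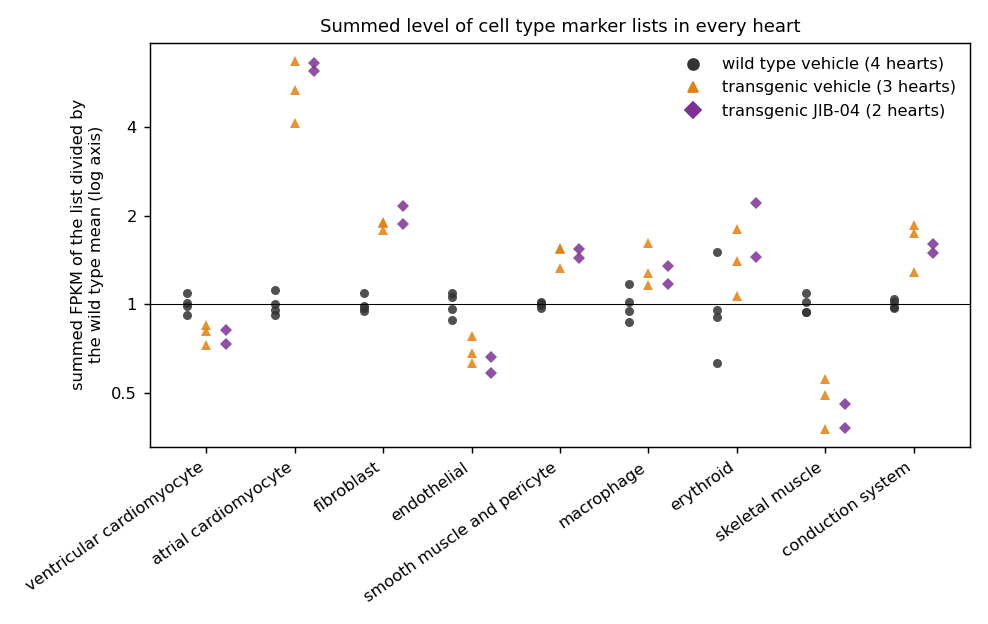
Summed FPKM of the markers of each cell type in every heart, divided by the wild type mean, on a log axis, with circles for wild type vehicle, triangles for transgenic vehicle and diamonds for transgenic JIB-04 hearts. The JIB-04 hearts sit at 0.662 and 0.585 for endothelial and at 2.16 and 1.88 for fibroblast markers.

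The comparison could be made within each day. At day 125 JIB-04 heart 1 was set against wild type hearts 1 and 2, and at day 158 JIB-04 heart 2 against wild type hearts 3 and 4. All 5079 called genes had the same direction on both days, which a call over both days favours. Ppp3ca differed by 5.99 and 5.82, Myh7 by 4.13 and 4.47 and Ces1d by -4.26 and -5.05. Across all tested genes the Pearson correlation of the differences was 0.82. A test of the difference between days called 0 genes in limma, with 614 at an unadjusted p under 0.05 and a smallest adjusted p of 0.13, and it rested on 2 residual degrees of freedom, with 1 JIB-04 heart a day assumed to vary like the wild type hearts. Fitted alone, day 125 gave 701 higher and 542 lower calls and day 158 gave 823 and 1023. Genes whose values differed most between the days included Egr1 (3.19 and 0.70) and Cdkn1a (0.72 and 2.18), and neither difference was called.

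**Figure D5:**
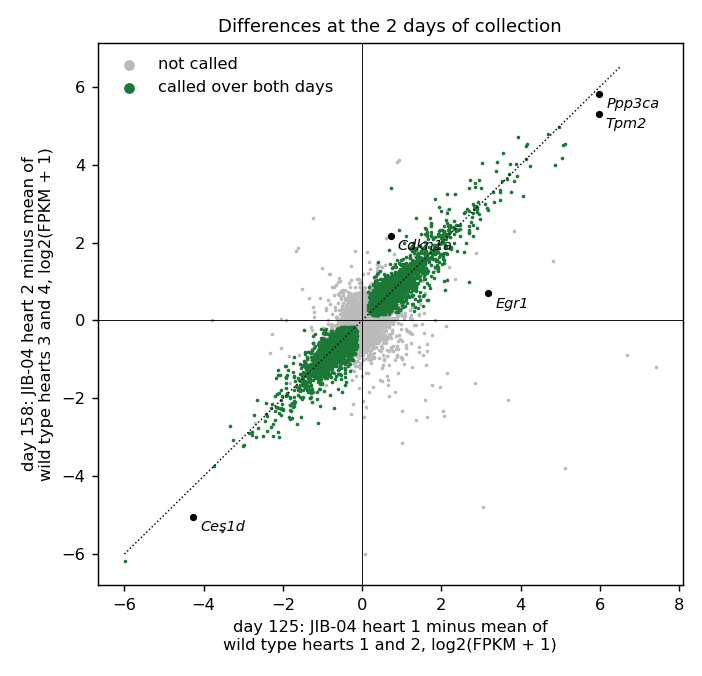
Each point is 1 tested gene, with the difference of log2(FPKM + 1) between the JIB-04 and the wild type hearts of day 125 on the horizontal axis and of day 158 on the vertical axis, green where called over both days and grey otherwise, and the dotted line marks equal differences. Tpm2 lies at 5.97 and 5.31, and Egr1 at 3.19 and 0.70.

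The JIB-04 hearts were also set beside the transgenic hearts given vehicle. Over all 9 hearts 1 of 13487 tested genes was called between JIB-04 and vehicle in transgenic hearts (0.00741%), with 444 at an unadjusted p under 0.05. It was Gm15776, which is no member of the lists. None of the 103 genes named by rule was called, and each had a limma adjusted p of 0.99 or 1.0. Both comparisons use the same JIB-04 hearts. The difference was largest for Egr1 (1.25, 95% interval 0.06 to 2.44), Timp4 (-1.09, interval -2.28 to 0.10), Car4 (-0.91, interval -1.56 to -0.25) and Angptl4 (0.83, interval 0.37 to 1.30). For Timp4 the vehicle hearts were at 3.47, 1.90 and 8.59 FPKM, all above 1.33 and 1.46 with JIB-04 and below 13.4 to 34.2 in wild type. Angptl4 was at 2.98, 2.26 and 4.35 FPKM with vehicle, between the levels of the other groups. For Myh7 the interval was -0.73 to 0.41, for Nppb -0.55 to 0.75 and for Tpm2 -0.45 to 0.56. Intervals were wide where vehicle heart 3 stood apart from vehicle hearts 1 and 2. They ran from -1.10 to 2.57 for Ppp3ca, from -1.01 to 2.08 for Acta2 (103 FPKM in vehicle heart 3), from -1.04 to 2.06 for Casq1 (5.4 FPKM) and from -1.64 to 1.5 for Myom2 (167 FPKM).

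Letter searches of the RefSeq promoters, from 250 bases before to 50 after a start site on both strands, gave a description of the called genes. Promoters were found for 369 of 550 genes called at least 2-fold higher (478 promoters) and for 242 of 395 called at least 2-fold lower (324 promoters). The NFAT core TGGAAA was in 21.5% of the former and 19.8% of the latter, beside 16.8% of promoters of all tested genes and 21.4% of all promoters in the table. TATAAA was in 12.8% and 11.1%, beside 7.39% and 13.6%, and AGATAA, the motif of GATA4 and its relatives, in 6.90% and 11.1%, beside 6.42% and 11.2%. The CArG box, bound by serum response factor, was in 3.14% and 1.23%, beside 1.34% and 1.63%. Matches of different motifs may overlap. A match is a description and not a bound site. For Rcan1, Nppa, Dkk2 and Lrrc15 only start sites with a match were printed, so their matches do not bear on the direction of change.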

How the data were processed

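Messenger RNA of mouse hearts was measured by sequencing. According to the labels' protocols, Trizol was used for extraction and a non-directional kit for the libraries, so strand was lost. The submitters' processing notes name STAR 2.7.1a, Picard, GATK 4.1.2, Cufflinks 2.2.1 and GRCm38 without saying what each tool did. The deposited values are log2 FPKM, per the file headers. The constant added before the logarithm was taken as 1, since each file's minimum is 0. No step that scales one heart to another is recorded.

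Genes reaching 1 FPKM in 2 or more of the 6 hearts entered a limma 3.58.1 fit of log2(FPKM + 1) under R 4.3.3 (lmFit and eBayes, variance trend on mean level), with group and day as terms. Residual degrees of freedom were 3, and the variance prior was worth 3.33 more. P-values are two-sided with Benjamini-Hochberg adjustment and a threshold of 0.05. JIB-04 against vehicle in transgenic hearts was fitted over all 9 hearts. Gene types and exon overlaps came from GENCODE M21, to which 616 tested genes were not matched. Not every overlap is named in the text. Others include Pfkfb1 with Apex2, Pfkfb2 with Yod1, Tgfb2 with Gm29491, Tgfb3 with Gm37804, Npr3 with Gm5144, Casq1 with Gm17224 and Gpi1 with Gm26762. Positions count from 1 in GRCm38. The fit was tested on simulated data (5 runs, 200 of 13196 genes changed). It recovered 38%, 94% and 98% of changes of 0.5, 1 and 2 on the log2 scale, and 7.55% of its calls were false. The simulated noise was independent between hearts, with no effect of day and the same spread in both groups. Far fewer genes changed there than the 38.5% called in the data, so these rates need not hold for the real calls.

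The rule for named genes took Ppp3ca and Rcan1, the 12 largest rises and falls among called protein-coding genes whose groups do not overlap, from each main list its 4 largest called members and from other lists the 2 largest, and the 4 genes with the largest difference from transgenic vehicle hearts. The members, gene lists, alternatives and rule were chosen with earlier results of these data known. The 22 alternatives covered pseudocounts of 0.1 and 0.5, the filter (none or 5 FPKM), 3 other scalings, the day term, the replicate block, all 9 hearts, variance settings, each day alone, protein-coding genes and leaving out each heart. Same-numbered hearts are not pairs, since number 2 joins hearts of different days. A few genes on the lists are not analysed here.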

Additional observations from a re-analysis of the deposited data

Results flagged for a closer look

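In 5 genes 1 wild type heart stood apart from the other 3, by a gap to its nearest neighbour that took more of the group's range than Dixon's 95% critical value allows. Chance alone flags about 1 in 20 groups. Nppb was at 77.7 FPKM in wild type heart 1 and at 147 to 166 in the others, and Hrc was at 396 in wild type heart 3 and at 444 to 451 in the others. Oas2 was at 8.85 FPKM in wild type heart 2 against 4.53 to 5.06, and Dkk3 at 1.71 in wild type heart 4 against 0.808 to 0.842. Ostn was at 0.0483 FPKM in wild type heart 2 against 0 to 0.00139, far below the 22.2 and 34.5 of the JIB-04 hearts. In Oas2 and Nppb the flagged heart moved the wild type group away from the JIB-04 hearts. In Hrc and Dkk3 the flagged hearts stayed on the wild type side of both JIB-04 hearts.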

How the results depend on the processing

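The direction of all 103 named genes was the same under every one of the 22 alternatives in which they were fitted, and 63 kept their call in each of those. The filter of 5 FPKM left out 13 of them, and the fit of protein-coding genes left out Ctgf. Genes called higher numbered 2676 and lower 2403 as reported. They were 5261 and 1517 with equal totals outside the mitochondrial chromosome, 701 and 542 in day 125 hearts only, and 823 and 1023 in day 158 hearts only. The replicate block gave 1309 and 1251 without the day term and 845 and 770 over all 9 hearts. With the day term, a block on 6 hearts leaves no residual degree of freedom. The deviations of same-numbered hearts from their group means correlated at 0.221 (number 1) and -0.227 (number 2). With 2 JIB-04 hearts, the deviations of these hearts are mirror images, so such correlations cannot show whether same-numbered hearts are pairs. Leaving out each heart gave 1219 to 2361 higher and 1064 to 2162 lower. Median of ratios gave 2427 and 2709, and quantile normalization 2319 and 2677 (47.3% and 46.4% higher, against 52.7%). At least 2-fold falls numbered 395, and 621 with a pseudocount of 0.1. Differences between days were called in 0 genes, in 442 without the filter, and in 0 to 2 on leaving out a heart. JIB-04 against transgenic vehicle called 1 gene, 6 without the filter, 2 without a variance trend, 0 with a pseudocount of 0.1, with a filter of 5 FPKM, in protein-coding genes only and with the replicate block, and 1 to 3 on leaving out a heart. The cause was not tested. With 2 JIB-04 hearts, 1 a day, and read numbers unknown, genes near the filter are the least certain.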
